A study of Mus musculus with 8 samples.

Results

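A set of 9 genes of the epithelial sodium channel (ENaC) and of the mineralocorticoid response were followed through embryonic mouse kidneys: Scnn1a, Scnn1b and Scnn1g, Prss8, Nedd4l, Sgk1, Nr3c2, Hsd11b2 and Tsc22d3. They were taken by name, as every probe set whose only gene symbol on the array is one of these, which gave 17 probe sets for 9 of the 18194 genes with such a probe set. Nedd4l had 6 probe sets, Tsc22d3 had 4 and the other genes had 1 each. The brightest probe set of a gene over the 8 arrays is given first, and signals of different probe sets are not set against each other.

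Whole kidneys were pooled in 4 groups, and RNA from every pool was hybridised to 2 Affymetrix mouse arrays. Conditional mutant embryos were Lim1flox/lacZ; Rarb2-Cretg/+ and control embryos were Lim1flox/+; Rarb2-Cretg/+, so every embryo carried the Cre transgene, and all were of mixed 129, C57BL/6 and SJL/J background and mixed sex. The pools held kidneys of 9 mutant and 14 control embryos at embryonic day 18.5 (E18.5), and of 17 mutant and 23 control embryos at E14.5. Rarb2-Cre is active in the metanephric mesenchyme, which forms the nephrons, so the ureteric bud, source of the collecting ducts, was not the target of the deletion, although in mutants it carried the lacZ null allele beside the floxed one. The 2 arrays of a pool were separate target preparations of a single RNA, so each condition has 1 biological replicate, the spread between arrays is technical, and no p-value was computed between 2 pools. Each ratio is therefore given with its range over the 4 pairings of arrays.

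ENaC is built of 3 homologous subunits, encoded by Scnn1a, Scnn1b and Scnn1g, and carries sodium from the urine into the principal cells of the connecting tubule and collecting duct. Aldosterone binds the mineralocorticoid receptor, the product of Nr3c2, while the enzyme made by Hsd11b2 inactivates glucocorticoids in the same cells and so keeps that receptor free for aldosterone. The receptor induces Sgk1, a kinase that phosphorylates the ubiquitin ligase Nedd4-2, the product of Nedd4l, and so slows the removal of ENaC from the membrane. Tsc22d3 encodes GILZ, another corticosteroid-induced protein that keeps ENaC at the cell surface, and Prss8 encodes prostasin, a membrane-anchored serine protease that raises ENaC activity.

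Corticosteroid receptors bind DNA at an inverted repeat, written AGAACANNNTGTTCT in full and TGTTCT for its single element, and both were searched on both strands from 250 bases before to 50 bases after each RefSeq transcription start (GRCm38.p6), the single element counting also where it is part of the full site. Of the 9 genes, 5 were matched, with 12 windows. The full site was found in 1 of the 6 Sgk1 windows and in none of the 3 of Tsc22d3 or the single windows of Scnn1b, Scnn1g and Nr3c2, against 3 of 32851 windows in all (0.00913%). The single element was found in 3 Sgk1 windows and 1 Tsc22d3 window, against 19.0% of all windows. The 250 bases before the start are shown for the Sgk1 window with the full site, for the Tsc22d3 window with the single element, and for the channel subunits Scnn1b and Scnn1g, whose windows hold neither. They are written in the direction of the gene, with single elements in capitals and, in Sgk1, the full site in capitals as one run of 15 bases whose first base lies 189 bases before the start.
Sgk1, chr10:21993640-21993889, + strand: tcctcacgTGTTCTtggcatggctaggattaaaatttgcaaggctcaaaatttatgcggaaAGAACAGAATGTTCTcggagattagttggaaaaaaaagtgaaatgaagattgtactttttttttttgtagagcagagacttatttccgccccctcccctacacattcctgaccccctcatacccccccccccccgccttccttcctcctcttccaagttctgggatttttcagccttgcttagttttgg
Tsc22d3, chrX:140600523-140600772, - strand: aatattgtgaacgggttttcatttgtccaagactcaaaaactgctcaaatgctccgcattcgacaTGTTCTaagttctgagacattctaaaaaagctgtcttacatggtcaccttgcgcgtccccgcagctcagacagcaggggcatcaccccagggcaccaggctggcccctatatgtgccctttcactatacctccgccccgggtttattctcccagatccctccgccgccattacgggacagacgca
Scnn1b, chr7:121864788-121865037, + strand: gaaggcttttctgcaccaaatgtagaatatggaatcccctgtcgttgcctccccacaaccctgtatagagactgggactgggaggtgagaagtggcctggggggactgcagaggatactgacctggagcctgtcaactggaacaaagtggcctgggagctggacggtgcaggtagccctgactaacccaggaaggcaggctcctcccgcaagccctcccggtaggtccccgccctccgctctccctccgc
Scnn1g, chr7:121734229-121734478, + strand: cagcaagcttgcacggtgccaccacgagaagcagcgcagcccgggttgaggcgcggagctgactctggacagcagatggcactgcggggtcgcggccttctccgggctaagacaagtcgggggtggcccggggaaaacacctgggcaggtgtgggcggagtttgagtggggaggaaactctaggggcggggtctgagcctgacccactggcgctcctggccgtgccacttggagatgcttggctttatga
These matches describe the letters of the windows, and receptor binding was not measured. Scnn1g and Scnn1b lie next to each other on chromosome 7 in RefSeq, with no other protein-coding gene between them.

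Array medians ranged from 225 to 243 signal units. The duplicates correlated with r = 0.980 over all probe sets (log2 scale) in the E18.5 mutant pool and at least 0.985 in the other pools. The median fold between duplicates was 1.16 in the E18.5 mutant pool, against 1.08 to 1.11 in the others. Between single arrays of a pool, at most 0.587% of genes passed the ratio and signal criteria used here, in the E18.5 mutant pool. A probe set was taken as measured in a pool when both arrays reached the 40th percentile of their signals, 177 to 193 units. Lim1 is listed under its current name Lhx1, and its brighter probe set gave 296 and 333 units in E18.5 mutants, 369.9 and 352 in E18.5 controls, 563 and 554 in E14.5 mutants and 449 and 517 in E14.5 controls. The other Lhx1 probe set went the opposite way by genotype at both stages, and since the place of either probe set relative to the deleted part is not given in the sources used here, neither checks the labels.

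**Figure D1:**
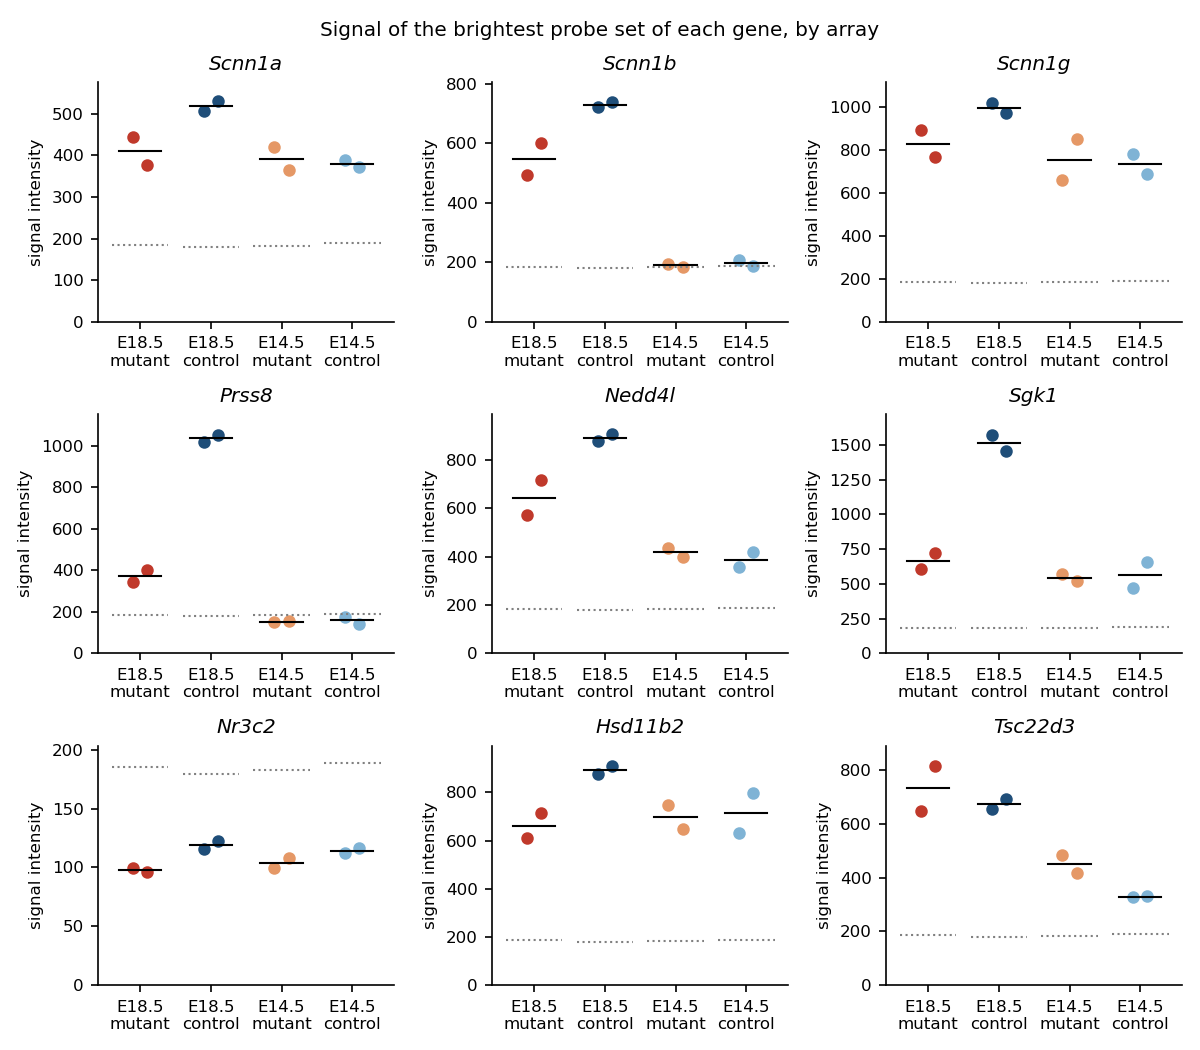
Signal intensity (linear units) of the brightest probe set of each of the 9 genes on each of the 8 arrays. Points are single arrays, black bars the mean of the 2 arrays of a pool, and dotted lines the 40th percentile of the arrays. Prss8 and Sgk1 stood apart in the E18.5 control pool, at 1019 and 1051 units for Prss8, and Nr3c2 lay below the 40th percentile in every pool.

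In control kidneys, 5 of the 9 genes were higher at E18.5 than at E14.5 by the size criteria, and no gene was lower. These were Prss8, Scnn1b, Sgk1, Nedd4l and Tsc22d3, at 6.50-, 3.68-, 2.68-, 2.30- and 2.05-fold. The criteria were a ratio of at least 2 between pool means that exceeded the fold between the duplicates of either pool, a higher mean times that fold above 100, and a signal at or above the 40th percentile on both arrays of the higher pool. Of the 8 genes measured in at least 1 of these pools, 5 were thus called higher, against 6.31% of 13692 genes, and 0 lower, against 3.91%. In all 8, both E18.5 arrays lay above both E14.5 arrays, as they did for 38% of genes, while 28.6% of genes had both below. The median log2 ratio of the 8 was 1.12, and that of all genes 0.02.

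The 3 channel subunits differed in their stage ratios. Scnn1b, the beta subunit, gave 721 and 739 units in E18.5 controls and 207 and 189 units in E14.5 controls, where it lay just above the 40th percentile. Its ratio was 3.68 (3.48 to 3.91). The alpha subunit Scnn1a gave 506 and 530.4 units at E18.5 and 389 and 372 units at E14.5 in controls, a ratio of 1.36 (1.30 to 1.43). The gamma subunit Scnn1g gave 1018 and 971 units at E18.5 and 782 and 688 units at E14.5 in controls, a ratio of 1.35 (1.24 to 1.48). All 3 had duplicates that did not overlap between stages, but the alpha and gamma subunits stayed below the 2-fold criterion, and their ranges lay wholly below that of the beta subunit.

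Prss8 had the highest stage ratio of the 9. It gave 1019 and 1051 units in E18.5 controls, against 175 and 144 units in E14.5 controls, a ratio of 6.50 (5.83 to 7.32). Both E14.5 arrays were below the 40th percentile, so this ratio rests on an E14.5 signal under that level. Sgk1 gave 1569 and 1452 units in E18.5 controls and 469.6 and 658 units in E14.5 controls. The 1.40-fold gap between the E14.5 control duplicates was the widest of any leading probe set here, and the Sgk1 ratio of 2.68 ranged over pairings from 2.21 to 3.34.

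Nedd4l and Tsc22d3 gave answers that depended on the probe set. The brightest Nedd4l probe set, 1423269_a_at, gave 877 and 907 units in E18.5 controls and 356 and 419.8 units in E14.5 controls, a ratio of 2.30 (2.09 to 2.54). Of its 5 other probe sets, 1457374_at had a ratio of 1.42, 1456044_at and 1437400_at were at 0.960 and 0.982 with overlapping duplicates, and 1423270_at and 1441305_at were below the 40th percentile on all arrays. The brightest Tsc22d3 probe set, 1420772_a_at, gave 655 and 693 units in E18.5 controls and 327 and 332 units in E14.5 controls, a ratio of 2.05 (1.97 to 2.12), close to the threshold. With 50 units added to each signal it was 1.91 and no longer called, and the call was also lost with quantile normalization and without the second E18.5 control array. Its probe set 1425281_a_at also had both E18.5 arrays above, at 1.71, 1425557_x_at overlapped at 1.07, and 1444365_at ran the other way at 0.726 (0.675 to 0.786). Which transcripts each probe set reads was not tested.

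Hsd11b2 gave 878 and 909 units in E18.5 controls and 632 and 795 units in E14.5 controls, a ratio of 1.25 (1.10 to 1.44). It was thus already well above the 40th percentile at E14.5. Nr3c2 gave 115 and 122 units in E18.5 controls and 112 and 116 units in E14.5 controls. Its only probe set was under the 40th percentile on all 8 arrays, so these arrays give no measured change for the mineralocorticoid receptor. The glucocorticoid receptor Nr3c1, which also binds corticosteroids in the kidney, gave 525 and 574 units in E18.5 controls and 511 and 516 units in E14.5 controls, a ratio of 1.07.

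**Figure D2:**
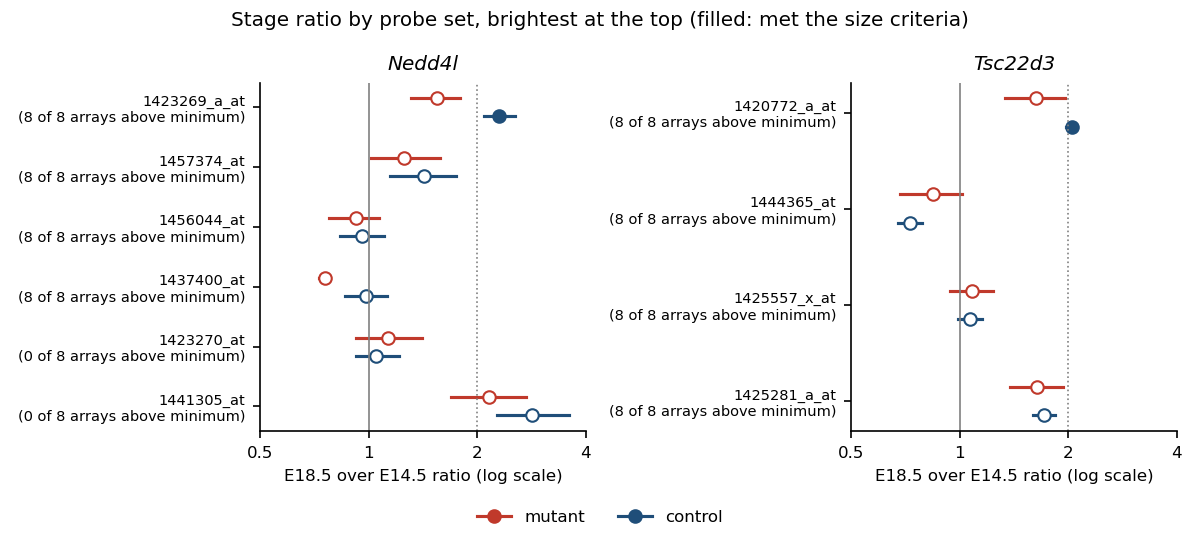
Ratio of E18.5 over E14.5 signal (log scale) for each probe set of Nedd4l and Tsc22d3, in mutants (red) and controls (blue). Points are ratios of pool means, lines the range over the 4 array pairings, and the dotted line marks 2-fold. In controls, measured probe sets of Nedd4l ran between 0.960 and 2.30 and those of Tsc22d3 between 0.726 and 2.05. The Nedd4l probe set at 2.84, 1441305_at, was below the 40th percentile on all 8 arrays.

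In mutant kidneys, 2 of the 9 genes, Scnn1b and Prss8, were higher at E18.5 than at E14.5 by the same criteria and none was lower. This was 2 of 8 measured genes, against 1.82% of 13484 genes called higher and 2.02% called lower. Both E18.5 arrays lay above both E14.5 arrays for 5 genes, as for 30.4% of all genes, below for 0, against 25.7%, and overlapped for 3. The median log2 ratio of the 8 was 0.46, and that of all genes 0.03.

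Scnn1b gave 494 and 602 units in E18.5 mutants and 194 and 185 units in E14.5 mutants, a ratio of 2.89 (2.54 to 3.26). Prss8 gave 343 and 403 units in E18.5 mutants and 149 and 157 units in E14.5 mutants, a ratio of 2.44 (2.18 to 2.70). Both genes were thus called higher at the later stage in mutants as well as in controls, Prss8 from E14.5 signals below the 40th percentile. For Tsc22d3, the ratio was 1.63 (1.34 to 1.96), from 648 and 816 units in E18.5 mutants and 485 and 416 units in E14.5 mutants. For Nedd4l it was 1.54 (1.31 to 1.80), from 573 and 717 units at E18.5 and 436 and 399 units at E14.5. Sgk1 gave 606 and 722 units in E18.5 mutants and 569 and 520.3 units in E14.5 mutants, a ratio of 1.22 (1.06 to 1.39). These 3 did not reach 2-fold. In mutants too, the answer for Nedd4l and Tsc22d3 depended on the probe set. Of the other measured Nedd4l probe sets, 1457374_at was at 1.25, 1456044_at overlapped at 0.920, and 1437400_at ran the other way at 0.756 (0.731 to 0.782). For Tsc22d3, 1425281_a_at was at 1.63, while 1425557_x_at and 1444365_at overlapped at 1.08 and 0.841.

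The duplicates of the remaining 3 measured genes overlapped between stages in mutants. Scnn1a gave 443 and 376 units in E18.5 mutants and 420.1 and 364 units in E14.5 mutants, at a ratio of 1.04. Scnn1g gave 892 and 766 units in E18.5 mutants and 658 and 849 units in E14.5 mutants, at a ratio of 1.10. Hsd11b2 gave 608 and 715 units in E18.5 mutants and 746 and 646 units in E14.5 mutants, at a ratio of 0.951. Of the 3 subunits, the beta subunit alone had duplicates that did not overlap between stages in mutants.

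A limma fit over the 4 pool means had stage and genotype as terms and 1 residual degree of freedom. It gave the stage effect a test under the assumption that this effect is the same in both genotypes. The residual is the difference in stage change between genotypes, which 1 pool per condition cannot tell apart from variation between pools. Leading probe sets had stage ratios in controls and mutants of 6.50 and 2.44 for Prss8 and 2.30 and 1.54 for Nedd4l. For Scnn1b they were 3.68 and 2.89, and for Tsc22d3 2.05 and 1.63. Of 27061 probe sets, 926 were higher at E18.5 (3.42%) and 1406 lower (5.2%) at an adjusted p under 0.05. Of 14 probe sets of the 9 genes that entered it, 5 were higher, of 4 genes. Prss8 was below the 40th percentile on every E14.5 array and entered the fit only through its E18.5 signals. Its adjusted p-values are therefore no support for a stage change. The log2 stage effect was 1.70 (SE 0.14, limma adjusted p = 0.0171) for Scnn1b and 1.99 (SE 0.34, limma adjusted p = 0.0371) for Prss8. It was 0.91 (SE 0.17, limma adjusted p = 0.0451) for the leading Nedd4l probe set and 0.86 (SE 0.14, limma adjusted p = 0.0321) for the leading Tsc22d3 probe set, with 0.74 (limma adjusted p = 0.0305) for 1425281_a_at. Sgk1 had a stage effect of 0.86 (SE 0.28) that missed the threshold (limma adjusted p = 0.135). Scnn1b passed in every fit that left out 1 array. Without the second E18.5 control array it was the only gene of the 9 to pass, with limma adjusted p = 0.0597 for Prss8, 0.0697 for Nedd4l and 0.0524 for Tsc22d3, and the calls of Nedd4l and Prss8 were also lost without the first E14.5 mutant array, which left 2 genes (limma adjusted p = 0.0523 for Nedd4l and 0.0540 for Prss8). Prss8 was lost with a robust prior (limma adjusted p = 0.108) as well, and Nedd4l without the second E14.5 mutant array (limma adjusted p = 0.0558).

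At E18.5, Prss8 and Sgk1 were lower in mutant than in control kidneys by the size criteria, and the other genes differed by less than 2-fold. This was 2 of 8 measured genes called lower, against 2.99% of 13574 genes, and 0 called higher, against 0.221%. Both mutant arrays lay below both control arrays for 7 of the 8, as for 24% of all genes, and overlapped for Tsc22d3. They lay above for 0, against 23.6%. The median log2 ratio of the 8 was -0.42, while that of all genes was 0.02.

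Prss8 gave 343 and 403 units in E18.5 mutants, against 1019 and 1051 units in E18.5 controls, a ratio of 0.361 (0.326 to 0.396). Sgk1 gave 606 and 722 units in E18.5 mutants, against 1569 and 1452 units in E18.5 controls, a ratio of 0.439 (0.386 to 0.497). In both, the higher mutant array was far below the lower control array, and the upper end of each range stayed under 0.5. The kinase and the protease were also the 2 genes called lower each time 1 array was left out.

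The 3 channel subunits were less far apart between genotypes. The ratio was 0.790 (0.709 to 0.875) for Scnn1a, from 443 and 376 units in E18.5 mutants and 506 and 530.4 units in E18.5 controls. For Scnn1b it was 0.751 (0.669 to 0.835), from 494 and 602 units in E18.5 mutants and 721 and 739 units in E18.5 controls. For Scnn1g it was 0.833 (0.752 to 0.919), from 892 and 766 units in E18.5 mutants and 1018 and 971 units in E18.5 controls. The duplicates of the 3 subunits did not overlap between genotypes, and none of the 3 met the size criteria.

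Hsd11b2 had a ratio of 0.740 (0.669 to 0.814), with 608 and 715 units in E18.5 mutants and 878 and 909 units in E18.5 controls. The leading Nedd4l probe set had a ratio of 0.723 (0.632 to 0.817), with 573 and 717 units in E18.5 mutants and 877 and 907 units in E18.5 controls. Of the other measured Nedd4l probe sets, 1437400_at was at 0.793 and 1457374_at at 0.819, each with both mutant arrays below. The probe set 1456044_at overlapped at 1.00. Nr3c2 was below the 40th percentile in both pools, with 99.2 and 96.0 units in mutants and 115 and 122 units in controls. Tsc22d3 did not share the lower signal: it gave 648 and 816 units in E18.5 mutants and 655 and 693 units in E18.5 controls, a ratio of 1.09 (0.934 to 1.25). Its 3 other probe sets had ratios of 1.07 to 1.20.

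**Figure D3:**
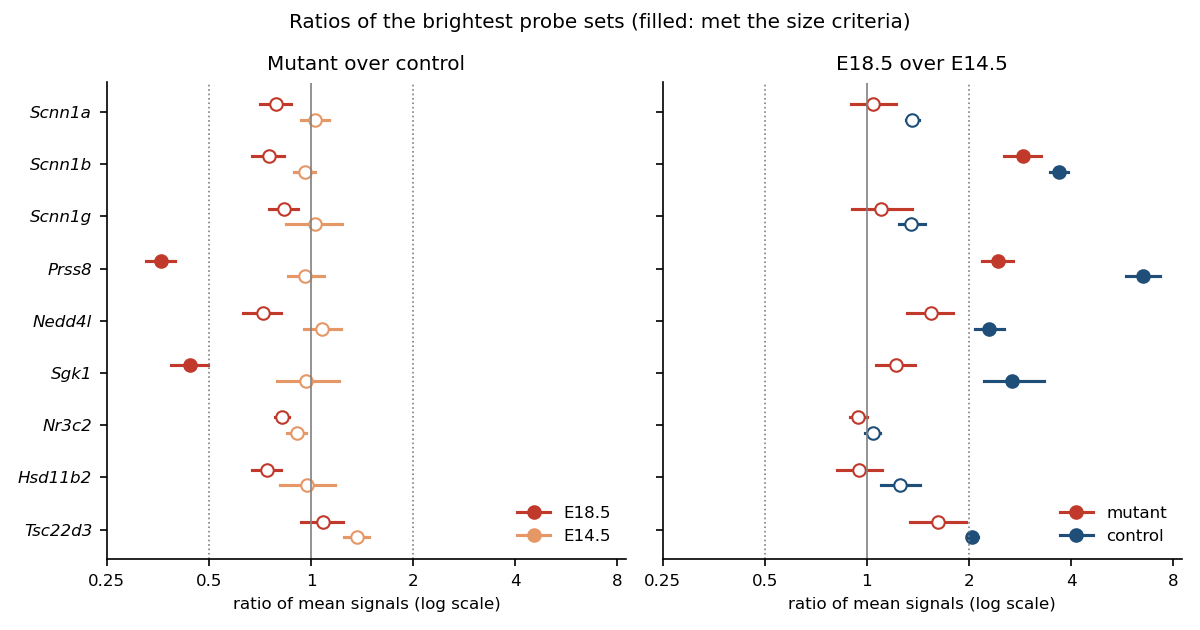
Ratios of mean signal of the brightest probe set of each gene (log scale). The left panel plots mutant over control at E18.5 (red) and E14.5 (orange), and the right panel E18.5 over E14.5 in mutants (red) and controls (blue). Lines are the range over the 4 array pairings, filled points met the size criteria, and dotted lines mark 2-fold in either direction. Prss8 (0.361) and Sgk1 (0.439) are the filled points of the left panel.

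At E14.5, none of the 9 genes differed between mutant and control kidneys by the size criteria. Of 7 measured genes 0 were called, against 0.166% of 13264 genes called lower and 0.00754% called higher. The duplicates of 6 genes overlapped between genotypes, with ratios of 0.957 to 1.08, and both mutant arrays lay below for 0, against 13.8%. Tsc22d3 gave 485 and 416 units in E14.5 mutants and 327 and 332 units in E14.5 controls, so both mutant arrays lay above, as for 26.3% of all genes, at a ratio of 1.37 (1.25 to 1.48). Its probe set 1425557_x_at was also above, at 1.16, while 1425281_a_at and 1444365_at overlapped at 1.12 and 1.03. Prss8 gave 149 and 157 units in E14.5 mutants and 175 and 144 units in E14.5 controls, all below the 40th percentile. The genotype ratio of Sgk1 at this stage was 0.967 (0.791 to 1.21). The median log2 ratio of the 7 was 0.04, and that of all genes 0.03.

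The limma genotype effect common to both stages passed for 0 of 27061 probe sets (0% in either direction), and 0 of 14 of the 9 genes. At an unadjusted p under 0.05, 584 probe sets were higher in mutants and 461 lower, with 0 of the 9 genes among them. Without the second E18.5 mutant array, 2 probe sets were higher and 59 lower, again with 0 of the 9 genes. That fit assumes the same genotype difference at both stages, while Prss8 and Sgk1 had ratios of 0.361 and 0.439 at E18.5 and of 0.962 and 0.967 at E14.5.

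The E18.5 over E14.5 ratio was lower in mutants than in controls for the leading probe sets of all 8 measured genes, as a difference of log2 ratios that has no test with 1 value a pool. The difference was -1.42 for Prss8 (range over the 16 choices of 1 array a pool, -1.75 to -1.11) and -1.14 for Sgk1 (-1.65 to -0.67). For Nedd4l it was -0.57 (-0.96 to -0.22). The other 5 measured genes lay between -0.40 and -0.30, and the ranges of Scnn1g and Hsd11b2 reached above 0. For the other measured Tsc22d3 probe sets the difference was -0.07, 0.02 and 0.21, with ranges that spanned 0. For those of Nedd4l the difference was -0.38 (-0.62 to -0.14), -0.18 and -0.06, and only the first had a range wholly below 0. Over 13915 genes the median difference was -0.01 and the 5th to 95th percentiles were -0.69 and 0.39, so Prss8 and Sgk1 lay outside that span, with 1.16% and 1.75% of genes at or below their values, and the other 6 measured genes inside it. This difference and the pairwise ratios share their pools, so none is independent of the others.

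Genes of pathways around the 9 were described by 7 lists, 79 genes in all, of which 69 had a probe set. The lists are not limited to genes of cells with ENaC. Kcnj1 is also a loop of Henle marker here, and the paper lists Fxyd2 for the proximal tubule and loop of Henle. At E18.5, 13 of 65 measured genes of these lists were lower in mutants (20%) and 0 were higher, against the 2.99% and 0.221% given above. In controls, 17 of 64 were higher by stage, against 6.31% of all genes, and 4 lower, against 3.91%. In mutants, 4 of 60 were higher by stage, against 1.82%, and 0 lower, against 2.02%. These 4 were Spint2, Cdkn1a, Atp1b1 and Fxyd4. At E14.5, 3 of 61 were lower in mutants, against 0.166%, and 0 higher, against 0.00754%. These 3 were Sult1d1, Atp1b1 and Fxyd2.

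Among serine proteases and their inhibitors, 1 of 9 measured genes was lower in E18.5 mutants. It was Tmprss2, a transmembrane protease, with 564 and 633 units in mutants and 1556 and 1559 units in controls, a ratio of 0.384 (0.362 to 0.407). St14, which encodes matriptase, a partner of prostasin in a protease cascade, had a ratio of 1.07 with overlapping duplicates. The Kunitz inhibitors Spint1 and Spint2, which restrain these proteases, had ratios of 0.771 and 0.836 and did not meet the criteria. By stage in controls, Spint2 was 3.39-fold, Tmprss2 3.19-fold and Spint1 2.20-fold higher at E18.5, and Spint2 was also higher in mutants, at 2.58-fold.

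Among 11 ubiquitin ligases and adaptors, Usp2, a deubiquitinase known to act on ENaC, was called lower in E18.5 mutants by 1 probe set, with 115 and 165 units in mutants and 351 and 336.5 units in controls. Its brighter probe set had a ratio of 0.700. Nedd4, the relative of Nedd4l, had a ratio of 1.35 and Ndfip2, an activator of Nedd4 family ligases, one of 0.573. Of 12 measured kinases and regulators around Sgk1, its relative Sgk2 was lower in E18.5 mutants, at 232 and 216 units against 448 and 481 units in controls, a ratio of 0.481. Sgk3 stood at 0.895 and Pdpk1, the kinase that activates Sgk1, at 0.814. The 7 measured receptors, chaperones and enzymes of corticosteroid action had ratios of 0.871 to 1.09 and 0 of them were called at E18.5. By stage in controls, the kinase Wnk4, which regulates distal sodium transport, was higher at 2.37-fold. Ndfip2, Wnk1 and Hsp90aa1 were called lower, each by a probe set other than the brightest. The brightest probe sets of Ndfip2 and Wnk1 ran the other way, at 1.78 (1.53 to 2.09) and 1.37 (1.21 to 1.57). That of Hsp90aa1 was at 0.779. Among the receptors at E18.5, Nr3c1 was lowest, with 456 and 501 units in mutants and 525 and 574 units in controls.

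Of 12 measured corticosteroid target genes, 4 were lower in E18.5 mutants: Sult1d1, a sulfotransferase, Mt1 and Mt2, the metallothioneins, and Klf9, a transcription factor, the last by a dimmer probe set. Sult1d1 gave 146 and 186 units in mutants and 2770.3 and 2461 units in controls, a ratio of 0.0634 (0.0527 to 0.0755). Mt1 had a ratio of 0.256 and Mt2 one of 0.391. Fkbp5, Per1, Errfi1 and Ndrg2, which corticosteroids induce in many cells, had ratios of 0.956, 0.877, 0.933 and 0.932. Dusp1, the brightest Klf9 probe set and Cdkn1a were at 0.664, 0.685 and 0.762, each with both mutant arrays below. Zbtb16 overlapped at 1.15, and Angptl4 had both mutant arrays above at 1.26 (1.23 to 1.30). The list thus ran from genes far lower in mutants to genes near or above 1. Its median log2 ratio was -0.29, with all genes at 0.02. By stage in controls, Sult1d1, Mt1 and the cell cycle inhibitor Cdkn1a were higher at 9.09-, 3.59- and 2.70-fold, and Klf9 by its dimmer probe set.

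Of 13 measured genes of sodium and potassium transport, 6 were lower in E18.5 mutants. Over brightest probe sets, the 3 lowest ratios were 0.0281 for Fxyd2, the gamma subunit of the sodium pump, 0.193 for Slc12a3, the thiazide-sensitive sodium chloride cotransporter, and 0.222 for Kcnj1, the potassium channel ROMK. The others were Atp1b1, the pump's beta subunit, at 0.235 by its brightest probe set and 0.136 by its lowest, and the basolateral potassium channels Kcnj10, at 0.365, and Kcnj16, whose brightest probe set was at 0.681 and not called while a dimmer one was called at 0.414. By stage in controls, these 6, Fxyd4 and the sodium calcium exchanger Slc8a1 were higher, Kcnj16 by its dimmer probe set. Calb1, which encodes a calcium-binding protein, was called lower by a dimmer probe set, while its brightest ran the other way at 1.17 (1.14 to 1.19). Fxyd4, a sodium pump regulator of the collecting duct, gave 1145 and 1432 units in E18.5 mutants and 904 and 952 units in E18.5 controls, a ratio of 1.39 (1.20 to 1.58), so both mutant arrays lay above. Its E18.5 signal was 3.80-fold its E14.5 signal in mutants and 2.56-fold in controls. Cldn4, a tight junction protein, was 1.97-fold higher in mutants at E18.5, just short of the criterion.

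**Figure D4:**
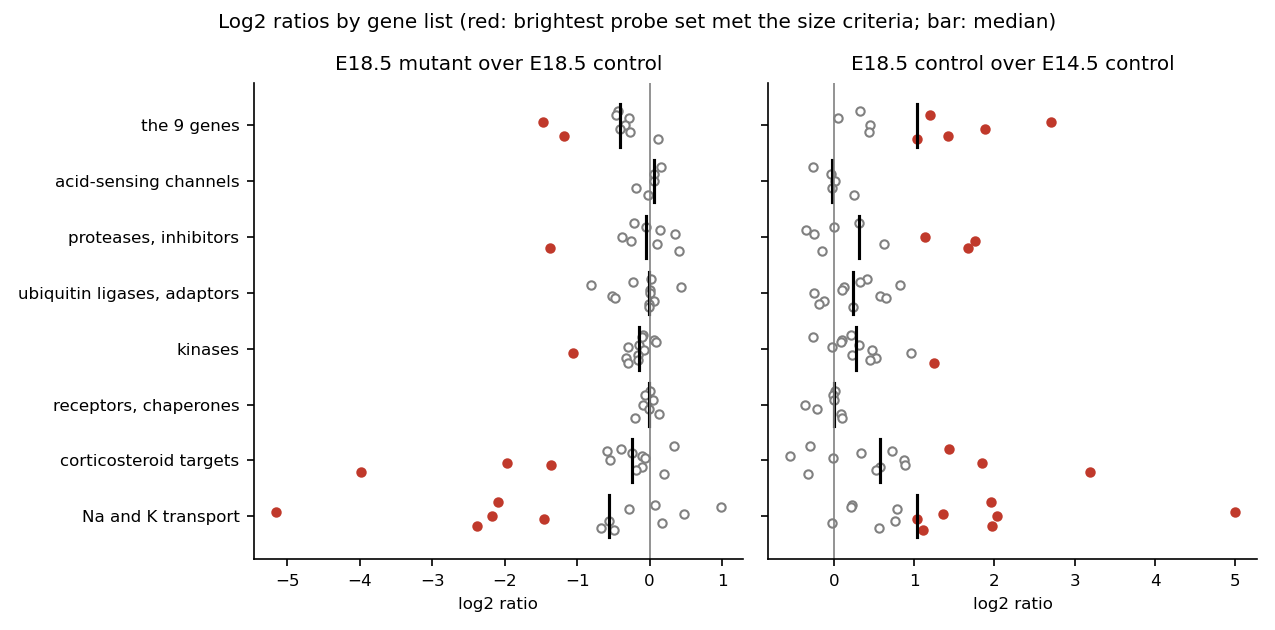
Log2 ratio of the brightest probe set of each gene, for the 9 genes and the 7 lists, as E18.5 mutant over E18.5 control (left) and E18.5 control over E14.5 control (right). Red points met the size criteria with that probe set and bars are list medians. On the left, no gene to the right of 0 met the criteria.

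Whole kidneys hold many cell types, and in such bulk samples fewer cells of a type and less RNA per cell cannot be told apart. The 7 general epithelial markers summed to 8699 and 9790 units in E18.5 mutants and 9475 and 9314 units in E18.5 controls, so their arrays overlapped. The 10 ureteric lineage markers summed to 7458 and 7653 units in E18.5 mutants and 7326 and 7109 units in E18.5 controls. Markers of the collecting duct principal cell, the main site of ENaC, summed to 3480 and 3801 units in E18.5 mutants and 6078 and 6115 units in E18.5 controls, and 3 of 7 were lower. Most of that gap was Aqp2, the vasopressin-regulated water channel, with 281 and 296 units in mutants and 2659 and 2632 units in controls, a ratio of 0.109. Aqp3 and Aqp4 were the others, each by dimmer probe sets, while Avpr2, Fxyd4, Elf5 and Gata3 had ratios of 0.702 to 1.39 and were not called. Proximal tubule markers summed to 1856 and 1711 units in E18.5 mutants and 20375 and 20841 units in E18.5 controls, with 7 of 8 lower. All 5 loop of Henle markers and 2 of 5 measured intercalated cell markers were also lower. For the intercalated cell these were Foxi1 and Atp6v1b1. The distal convoluted and connecting tubules, of which the connecting tubule is a site of ENaC, had marker sums of 5744 and 5322 units in E18.5 mutants and 6073 and 5865 units in E18.5 controls, with 2 of 6 lower, Slc12a3 and, by dimmer probe sets, Klk1. Most of the distal and connecting tubule sum on each array was Calb1, also a ureteric marker here, and the brightest Klk1 probe set. These overlapped between genotypes, at ratios of 1.06 and 1.08, and Trpm6 and Pvalb overlapped at 1.06. Slc12a3 was at 0.193, Slc8a1 at 0.711 and the dimmer Klk1 probe sets at 0.0881 and 0.0647. Podocyte markers had 1 of 4 lower, Synpo.

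Cap mesenchyme markers, of the nephron progenitors, summed to 3703 and 4106 units in E18.5 mutants and 2308 and 2372 units in E18.5 controls, with 0 of 4 measured called. Stroma markers summed to 9766 and 10588 units in E18.5 mutants and 7250.4 and 7239.7 units in E18.5 controls, with Pdgfra higher at 2.11-fold. Of the ureteric markers Ret, the receptor for GDNF, was called higher by a dimmer probe set, at 2.01-fold. Of the liver markers Alb was higher at 2.03-fold and Afp lower, at 0.205. No endothelial, macrophage and leukocyte or erythroid marker was called at E18.5, and adrenal markers were not called in any comparison. The part of these cell types in the differences of Prss8, Sgk1 and the channel subunits was not tested.

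By stage, the principal cell markers summed to 3480 and 3801 units in E18.5 mutants and 2442 and 2346 units in E14.5 mutants, and to 6078 and 6115 units in E18.5 controls and 2307 and 2363 units in E14.5 controls. Aqp2 was 2.16-fold higher at E18.5 in mutants and 16.8-fold in controls. General epithelial markers summed to 8699 and 9790 units in E18.5 mutants and 5681 and 5296 units in E14.5 mutants, and to 9475 and 9314 units in E18.5 controls and 5191 and 5453 units in E14.5 controls. Both marker sums were thus higher at E18.5 in each genotype, and their part in the stage ratios of Scnn1b and Prss8 was not tested.

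Other genes whose 4 pool means ran most like those of a gene called here were found by the Euclidean distance of log2 pool means, each centred on its own mean, over 13440 genes. Nearest to Scnn1b was Tmem45b (distance 0.07), followed by Bst2 and Fabp4. Nearest to Sgk1 were Npl (0.07), Adhfe1 and Bphl, and nearest to Prss8 were Lgmn (0.39), Pdzk1ip1 and Car4. Nearest to Nedd4l were Clca3a1 (0.04), Mafg and Atraid, and nearest to Tsc22d3 were Tgfb1 (0.03), Ssbp4 and Cdc25b. The nearest gene to Prss8 was thus farther away than any gene named for the other 4. With 4 points a likeness is a description only: 209 to 287 genes had a Pearson r above 0.99 with each of these 5.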

How the data were processed

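The deposited intensities are linear signals that the authors made with the dChip 2004 model, invariant-set normalized, after scaling in Microarray Suite 5.0. The array's own annotation, with symbols updated, gave 34958 of 45101 probe sets 1 gene, 932 several and 9211 none. Each ratio divides the arithmetic mean of one pool's duplicates by that of another. Genes counted as called had any probe set that met the size criteria, which followed the study's except that a minimum signal replaced its detection calls. For limma 3.58.1 (R 4.3.3), duplicates were averaged as log2(signal + 1), with Benjamini-Hochberg adjustment over 27061 probe sets. Both procedures were tested on simulated data. The limma simulation had less spread between duplicates than these arrays and the same genotype effect at both stages. It therefore does not show how the fit performs on these data.

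The 9 genes, the pathway and marker lists and the tests were chosen with earlier results of these data known, so no count here is independent evidence. Any gene of the pathway lists called in at least 1 comparison could be named, with values for the 3 largest folds of a list. Other genes and values given from the lists were chosen after they were seen. The 3 nearest genes are given for each of the 9 that was called. With 1 pool per condition, the number of arrays limits the precision. Alternatives were quantile normalization, median scaling, other minimum signals, 50 units added, geometric means, no criterion on duplicates, a 1.5-fold threshold, the brightest probe set only, for limma no filter, a mean-variance trend and a robust prior, and each array left out. Sequences are from RefSeq (GRCm38.p6).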

Additional observations from a re-analysis of the deposited data

How the results depend on the processing

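No called ratio or stage effect of the 9 genes changed direction under any alternative run, while values near 1, or effects near 0, that were not called crossed it under some. Prss8 and Sgk1 stayed the 2 genes of the 9 called lower in E18.5 mutants under each, and Scnn1b and Prss8 stayed called by stage in mutants. In controls, Tsc22d3 dropped out of the 5 called genes, leaving 4, with quantile normalization, with 50 units added, and without the second E18.5 control array. With a 1.5-fold threshold, 4 of the 9 were higher by stage in mutants (Nedd4l, Prss8, Scnn1b and Tsc22d3), and with no minimum signal 3 (Nedd4l, Prss8 and Scnn1b). The Nedd4l call with no minimum came from 1441305_at, at 2.15, which was below the 40th percentile on all 8 arrays.

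Counts over all genes moved more than 1.5 times as follows. With a 1.5-fold threshold, 222 genes were higher and 925 lower in E18.5 mutants than controls (30 and 406 as reported), 83 and 87 in E14.5 mutants (1 and 22), 819 and 1106 by stage in mutants (245 and 272), and 2120 and 1269 by stage in controls (864 and 535). With the brightest probe set only, 18 were higher in E18.5 mutants, 0 higher and 13 lower in E14.5 mutants, 163 higher and 135 lower by stage in mutants, and 220 lower by stage in controls. With 50 units added, 14 were higher in E18.5 mutants and 155 by stage in mutants. In E14.5 mutants, a 50th percentile minimum left 14 lower, no minimum gave 2 higher and 36 lower, and median scaling gave 2 higher.

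Leaving out single arrays gave 39 to 101 genes higher in E18.5 mutants, 1 to 4 higher and 17 to 35 lower in E14.5 mutants, and 164 to 384 higher by stage in mutants. The limma genotype effect then passed for 0 to 2 probe sets higher and 0 to 59 lower. The stage effect passed for 383 to 2042 higher and 679 to 2107 lower, with 1 to 4 of the 9 genes higher and 0 to 1 lower. The lower call was Tsc22d3 by 1444365_at, without the first E18.5 mutant array. The cause of these moves was not tested. Leaving out probe sets that differed 1.5-fold or more between the E18.5 mutant arrays, an alternative chosen after seeing the data, moved no count by over 1.5 times. No paired analysis was possible because the array numbers mark repeat target preparations of one RNA pool. Limits are the single pool per condition, the Nr3c2 probe set below the minimum signal on all arrays, and the E14.5 signals of Prss8 and Scnn1b below or near it.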
